A study of Mus musculus with 6 samples.

Results

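Respiratory complexes I, II, III and V were followed through their nuclear genes. Every row of the deposited table whose symbol began with Ndufa, Ndufb, Ndufc, Ndufs, Ndufv, Uqcr or Atp5, or was one of Sdha to Sdhd, was taken as a member, unless the symbol held -ps. The rule found 81 of 53700 rows: 51 for complex I, 4 for complex II, 8 for complex III and 18 for complex V. It takes in 8 complex I assembly factors and 6 related genes beside the subunits, among them Ndufa4, which is now placed in complex IV, and it leaves out the complex III subunit Cyc1. Counts were high enough to test 78 members. The GENCODE M21 annotation types 3 members as processed pseudogenes, Ndufa11b, Ndufs6b and Ndufb4c, of which Ndufb4c was tested. The members not tested were Ndufa11b, with 0 to 7 counts per library, Ndufs6b, with 2 counts in 1 library, and a further row named Atp5o, with a count of 0 in all 6 libraries.

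The study sequenced RNA of primary spermatocytes, the germ cells in meiotic prophase, sorted by flow cytometry after Hoechst staining of testis cells. Both groups were C57BL/6 mice 8 weeks old. The circSry KO group (3 libraries) lacked circSry, the circular RNA of the sex-determining gene Sry, and the WT group (3 libraries) was wild type. The labels do not state how the knockout was made or whether each library came from its own animal; p-values therefore refer to the spread among these 6 samples, which may be technical. Values are listed below in the order of the replicate numbers, 1 to 3.

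Complex I oxidises NADH and complex II oxidises succinate, and both pass electrons to ubiquinone. Complex III hands the electrons on to cytochrome c, and complex V, the ATP synthase, uses the proton gradient that complexes I and III help to build. Complexes I, III and V combine nuclear subunits with subunits encoded in mitochondrial DNA, whereas complex II is wholly nuclear. Spermatocytes entering meiosis are known to rely more on oxidative phosphorylation than spermatogonia do.

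Promoters of nuclear respiratory genes often carry sites for the factors NRF1, GABPA (an ETS protein) and YY1. RefSeq promoters (GRCm38.p6, 250 bases before to 50 after each start) were found for 65 members and searched on both strands. The NRF1 motif, GCGCA followed by any base and GCGC, was present for 19 members, 29.2%, and for 5.19% of 27025 genes. The ETS motif CCGGAAG was present for 16 members, 24.6%, and for 9.93% of genes. The YY1 motif, AAG followed by ATGGCGG, was present for 6 members, 9.23%, and for 0.995% of genes, and since the ETS motif ends in AAG, 1 stretch can hold both. A match is a string of letters and not a measured binding site. The windows below, with the motif in capitals, show the shared strings in genes of complexes II, III and V that the results come back to. They lie at chr13:74350276-74350305 for Sdha, chr9:50603909-50603938 for Sdhd, chr4:116075071-116075100 for Uqcrh, chr2:10080433-10080462 for Atp5c1 and chr16:84835045-84835074 for Atp5j, all read on the minus strand, which is the strand of each gene.
Sdha, NRF1 motif: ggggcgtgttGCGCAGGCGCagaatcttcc
Sdhd, NRF1 motif: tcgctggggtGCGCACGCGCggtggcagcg
Atp5c1, NRF1 motif: cgcctgagctcccGCGCACGCGCactgagt
Uqcrh, ETS motif on the other strand: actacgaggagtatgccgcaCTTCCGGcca
Atp5j, YY1 motif: aagtgtaggaAAGATGGCGGagtcttagct

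Depth was 8191397 to 9294723 estimated counts per library in circSry KO and 7400360 to 8422943 in WT. Sry had a count of 0 in all 6 libraries, which allows up to 0.323 to 0.405 CPM (counts scaled to the library total) by counting error alone. Since linear and circular transcripts are not separated in such a count, it says nothing on the loss of circSry. The 12 pachytene and diplotene markers were all tested, with summed CPM of 7674 to 13555 in circSry KO and 10351 to 12610 in WT. Ldhc was the largest part of each sum, at 3956, 2739 and 6953 CPM in circSry KO, against 4363, 2798 and 3590 CPM in WT. At an unadjusted edgeR p under 0.05, 2 of them were lower, Sycp1 and Ybx2, which DESeq2 also called. Without circSry KO replicate 3 edgeR called 5 of the 12 lower (16.2% of all genes) and 1 higher (18.5% of all genes). Sycp1, a synaptonemal complex protein, had 60.4 to 96.2 CPM in circSry KO and 204 to 330 CPM in WT. Piwil1 had 55.2, 74.2 and 829 CPM in circSry KO, against 1023, 1432 and 1138 CPM in WT, without overlap (edgeR adjusted p = 0.256). Of the 12 log2 fold changes, 5 were positive. On TPM, which is per length, the 12 summed to 9045 to 9648 in circSry KO and 12111 to 13763 in WT. Markers of other cells also differed between the groups, and the part of these markers in the results below was not tested. Among all genes tested, 13.6% were higher and 9.84% lower at an unadjusted edgeR p under 0.05. Elongating spermatid markers, led by Prm1, Prm2 and Tnp2, summed to 15939, 11654 and 6236 CPM in circSry KO, against 3182, 1961 and 2107 CPM in WT, and 10 of 10 were higher at an unadjusted edgeR p under 0.05. Round spermatid markers summed to 2417 to 3112 CPM in circSry KO and 930 to 1581 CPM in WT (8 of 10 higher at that p), and Sertoli cell markers to 230 to 398 CPM and 81.0 to 100.3 CPM (6 of 7 tested). The macrophage and leukocyte list summed to 482, 274 and 51.7 CPM in circSry KO, against 29.6 to 45.9 CPM in WT (8 of 9 tested were higher), and the endothelial and peritubular list to 583, 657 and 56.6 CPM, against 145 to 213 CPM (2 of 9). Leydig cell markers summed to 223 to 582 CPM in circSry KO and 549 to 827 CPM in WT, with 6 of 7 lower at that p, and spermatogonial markers to 194 to 260 CPM and 155 to 204 CPM, with 4 of 10 higher at that p. In circSry KO replicate 3 the Sertoli cell gene Sox9 and the macrophage gene C1qc had a count of 0, and so had the Sertoli cell gene Fshr, which was at 0 in all WT libraries as well. The Sertoli cell genes Cst9 and Cst12 had 22.8 and 16.8 CPM in that library, against 0.465 to 1.37 and 0.581 to 0.822 CPM in WT. In bulk RNA, fewer cells of a type and less RNA per cell cannot be told apart.

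One library stood apart for these genes. The members took 0.723%, 0.434% and 1.68% of all counts in circSry KO replicates 1 to 3, against 0.912%, 0.669% and 0.687% in WT. Of the 78 tested members, circSry KO replicate 3 had the highest CPM of the 6 libraries for 70 and circSry KO replicate 2 the lowest for 65. Over all 16829 genes tested the same held for 26.0% and 25.8%. On TPM, a measure per length, these libraries were the highest for 57 members (9.63% of all genes) and the lowest for 60 (15.9% of all genes). Both extremes were thus circSry KO libraries, and the WT libraries lay between them for most members.

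In all 4 complexes circSry KO replicate 3 was the highest library and circSry KO replicate 2 the lowest. Relative to the WT mean on the log2(CPM + 0.5) scale, the median complex I gene lay at -0.07, -0.90 and 1.65 in circSry KO replicates 1 to 3, against 0.33, -0.24 and -0.14 in WT. The complex III median lay at 0.04, -0.85 and 1.92 in circSry KO, against 0.41, -0.28 and -0.07 in WT, and the complex V median at 0.09, -0.76 and 1.56, against 0.15, -0.13 and -0.16. Complex II departed less in replicate 3 and more in replicate 1, with medians of -0.42, -1.13 and 0.61 in circSry KO, against 0.11, -0.01 and -0.07 in WT. For the median of all genes tested the same 6 values lay between -0.02 and 0.03. Of the 78 members, 72 were below the WT mean in circSry KO replicate 2 and 3 in circSry KO replicate 3.

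**Figure D1:**
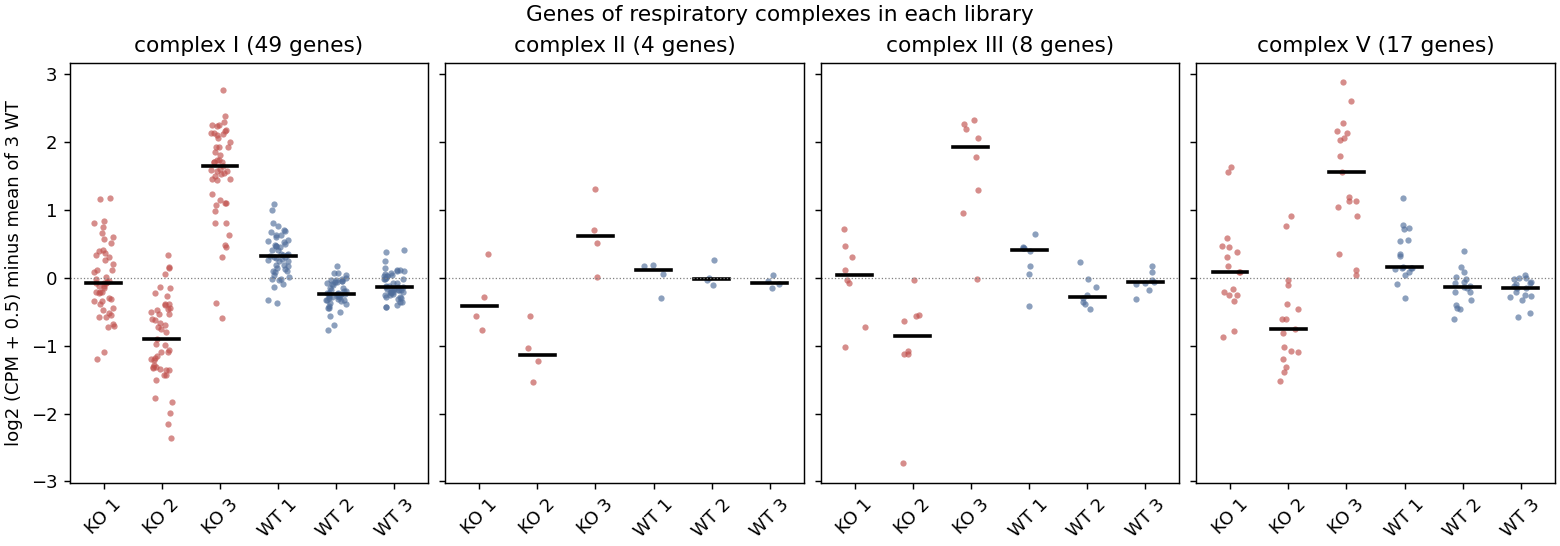
Each point is 1 tested gene of the complex named above the panel, as log2(CPM + 0.5) minus the mean of the 3 WT libraries (vertical axis), in circSry KO replicates 1 to 3 (red) and WT replicates 1 to 3 (blue); black lines are medians. circSry KO replicate 3 is the highest library and circSry KO replicate 2 the lowest in every panel, with medians of 1.65 and -0.90 for complex I.

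Sums on the TPM scale were lowest in circSry KO replicate 2 for all 4 complexes and highest in circSry KO replicate 3 for complexes I, III and V. Complex I genes summed to 8144, 5416 and 18984 TPM in circSry KO, against 11735, 9225 and 9317 TPM in WT. Complex III genes summed to 2911, 1869 and 7631 TPM in circSry KO, against 4247, 3049 and 3332 TPM in WT. Complex V genes summed to 5951, 4132 and 12489 TPM in circSry KO, against 8287, 6539 and 6380 TPM in WT. In each of these complexes, circSry KO replicates 1 and 2 were below all WT libraries and replicate 3 above them, so the group means differed by less than the spread between replicates: 10848 ± 7177 TPM in circSry KO and 10092 ± 1423 TPM in WT for complex I (SD, n = 3 each). Without circSry KO replicate 3 the ratio of the circSry KO mean to the WT mean was 0.672 for complex I, 0.675 for complex III and 0.713 for complex V, in place of 1.07, 1.17 and 1.06.

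Complex II had by far the lowest sum and another pattern. Its 4 genes summed to 322, 234 and 438 TPM in circSry KO, against 385, 565 and 431 TPM in WT, with means of 331 ± 102 and 460 ± 93.5 TPM (SD, n = 3 each). Only circSry KO replicate 3 reached the WT range. The sum of complex III stayed in a narrow proportion to that of complex I, at 0.357, 0.345 and 0.402 in circSry KO, against 0.362, 0.331 and 0.358 in WT, and so did complex V, at 0.731, 0.763 and 0.658, against 0.706, 0.709 and 0.685. The proportion of complex II to complex I ranged more widely, at 0.0395, 0.0433 and 0.0231 in circSry KO, against 0.0328, 0.0612 and 0.0463 in WT.

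**Figure D2:**
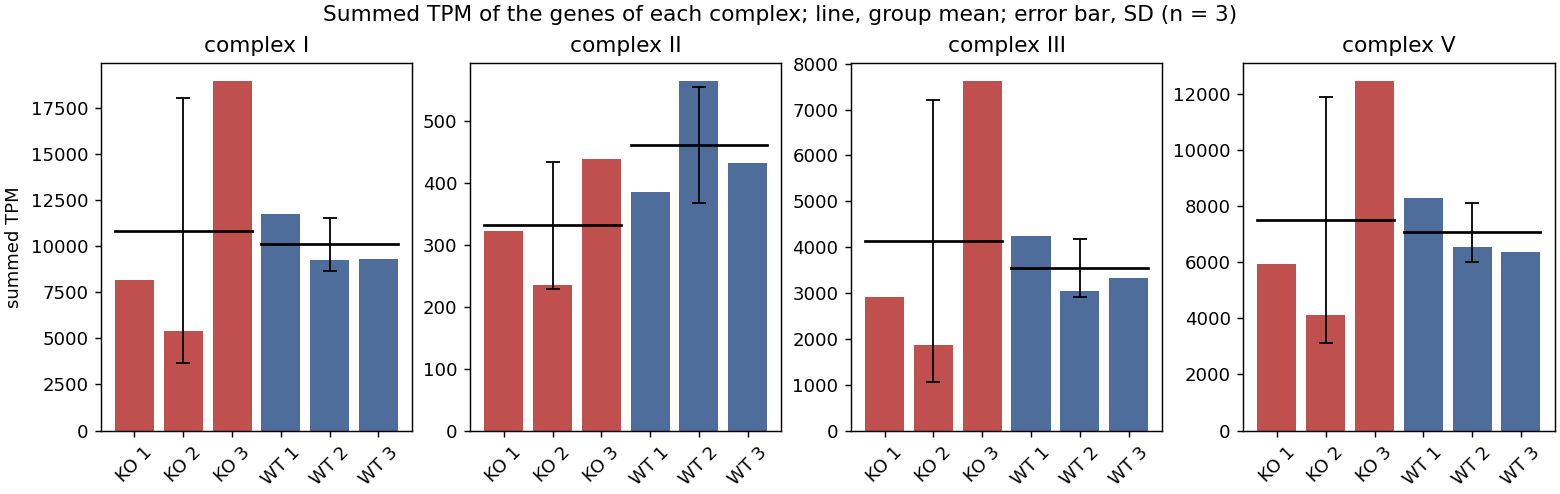
Summed TPM of the genes of each complex (vertical axis, starting at 0) in circSry KO replicates 1 to 3 (red) and WT replicates 1 to 3 (blue); horizontal lines are group means and error bars SDs (n = 3). In complexes I, III and V, circSry KO replicates 1 and 2 are below the WT bars and replicate 3 above them, with 5416 TPM as the lowest and 18984 TPM as the highest value of complex I.

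Which of these genes differ between spermatocytes with and without circSry was asked with edgeR's quasi-likelihood test over all genes, with Benjamini-Hochberg adjustment. It called 0 members higher and 0 lower at an adjusted p under 0.05, as it did for all genes tested (0.0% higher and 0.0% lower). At an unadjusted p under 0.05, 4 members were higher and 0 lower, beside 13.6% higher and 9.84% lower among all genes. The 4 were Ndufb1, Ndufa13, Atp5md and Atp5mpl. DESeq2 called 2 members higher and 0 lower (6.9% and 4.65% of all genes), and edgeR with no filter on low counts called the same 2 higher and 0 lower (1.75% and 1.03%): Atp5md and Atp5mpl.

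The direction of the differences rested on the library that stood apart. With all libraries, 66 of 78 log2 fold changes (circSry KO against WT) were positive, with a median of 0.65, beside 0.12 for all genes tested. Without circSry KO replicate 3, 63 of 78 were negative, with a median of -0.50, beside 0.02 for all genes. In that fit edgeR called 2 members higher (18.5% of all genes) and 12 lower (16.2% of all genes), a share of lower calls near that of all genes. The medians by complex were 0.72 for complex I, -0.18 for complex II, 0.72 for complex III and 0.60 for complex V with all libraries, and -0.54, -0.84, -0.43 and -0.43 without that library. On log2(TPM + 1) with all libraries, 51 of 78 differences were negative, with a median of -0.22, near the -0.25 of all genes.

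Transcript length moved with these differences. The members are short, with a median effective length of 475 bases (125 to 2098), beside 1872 bases over all genes tested. Across the 78 members, the log2 fold change on counts had a Pearson correlation of -0.68 with log2 length, a description over genes that share the same libraries, and across 16742 genes it was -0.40. In circSry KO replicate 3 the 26 shortest members lay at a median of 2.15 above the WT mean (log2 CPM), the 26 of middle length at 1.63 and the 26 longest at 0.93. In the same library the shortest 20% of all genes had a median of 1.16 and the longest 20% one of -0.82. These medians had the same direction in circSry KO replicate 1 (0.61 and -0.44) and WT replicate 1 (0.29 and -0.31). They were reversed in WT replicate 2 (-0.22 and 0.25) and WT replicate 3 (-0.07 and 0.08), and close together in circSry KO replicate 2 (0.08 and 0.05). Without circSry KO replicate 3 the correlation was -0.08 over members and -0.18 over all genes. With each library's trend on length removed, 63 of 78 members had a negative log2 fold change, with a median of -0.29, beside 0.04 over all genes. With the trend removed and circSry KO replicate 3 left out, a combination chosen after seeing the data, it called 54 members lower and 0 higher, beside 23.3% lower and 21.2% higher among all genes. What sets this library apart was not tested.

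**Figure D3:**
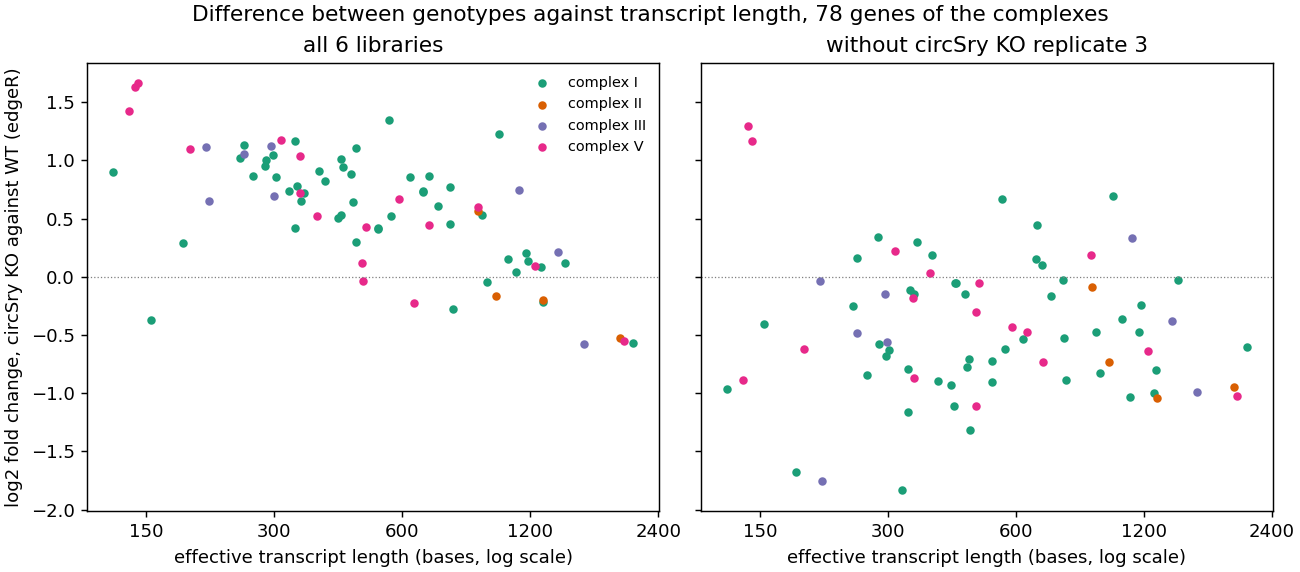
Log2 fold change of circSry KO against WT from edgeR (vertical axis) against effective transcript length in bases (log horizontal axis) for the 78 tested genes, coloured by complex, with all 6 libraries (left) and without circSry KO replicate 3 (right). The slope on the left (r = -0.68) is near flat on the right (r = -0.08), where most points lie below 0; Atp5md and Atp5mpl stay at the top.

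The 7 nuclear core subunits of complex I, which bind NADH and carry electrons through iron-sulfur clusters, had 6 positive log2 fold changes and a median of 0.41, and none passed the test. Ndufv2, a core iron-sulfur subunit and the most abundant of them, had 468, 292 and 715 TPM in circSry KO, against 526, 317 and 349 TPM in WT. The groups overlapped, and the log2 fold change on counts was 0.77 ± 0.56 (SE; edgeR adjusted p = 0.434). Ndufs1 (chr1:63143596-63176833, GRCm38, minus strand), the largest iron-sulfur subunit, had 84.8, 76.4 and 78.3 CPM in circSry KO, against 107, 121 and 127 CPM in WT. It was the only tested member whose CPM was lower in every circSry KO library than in every WT library, as was the case for 14.4% of all genes. Its log2 fold change was -0.57 ± 0.27 (SE; edgeR adjusted p = 0.246). On TPM the groups overlapped, at 48.6, 56.8 and 67.1 TPM in circSry KO and 65.1, 93.5 and 86.1 TPM in WT, and the length that the deposited counts and FPKM imply for Ndufs1 in circSry KO replicate 3, 895 bases, was shorter than the 2053 to 2243 bases in the others. Exons of Ndufs1 overlap Eef1b2, an elongation factor gene, which had 46.9 to 248.9 CPM in circSry KO and 71.2 to 129 CPM in WT.

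The 30 accessory subunits of complex I surround the core and are needed for its assembly and stability. They had 29 positive log2 fold changes with a median of 0.84. For these genes circSry KO replicate 3 was the highest library in all 30 on CPM and in 27 on TPM. Without it their median was -0.60, and none passed the test in the fit with all libraries. Ndufc1, the most abundant, had 509, 386 and 1501 TPM in circSry KO, against 823, 524 and 422 TPM in WT, and its log2 fold change was 1.02 ± 0.67 (SE; edgeR adjusted p = 0.383). Replicate 3 was far above all other libraries. Ndufb1 is known as a small subunit of the membrane arm, while GENCODE M21 types its row as a long noncoding RNA at a bidirectional promoter. It had 206, 132 and 268 TPM in circSry KO, against 121, 115 and 110 TPM in WT. Its groups did not overlap on TPM but did on CPM, and its log2 fold change was 1.35 ± 0.51 (SE; edgeR adjusted p = 0.164). Ndufa13, a subunit also known as GRIM-19, had 136, 98.1 and 151 TPM in circSry KO, against 103, 69.3 and 63.9 TPM in WT, with a log2 fold change of 1.22 ± 0.48 (SE; edgeR adjusted p = 0.175).

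Exons of both genes overlap another gene in the GENCODE M21 annotation. The library kit does not mark strand, so reads from the shared stretch cannot be told apart by strand. The deposited counts of both genes were whole numbers. For Ndufa13 the partner is Tssk6, a kinase gene of spermatids, which had 474, 236 and 197 CPM in circSry KO, against 86.0, 49.5 and 47.9 CPM in WT. Its groups did not overlap. For Ndufb1 the partner is Cpsf2, a factor of mRNA 3' end processing, with 42.9 to 66.5 CPM in circSry KO and 52.9 to 64.8 CPM in WT. In all, 31 members share exon sequence with another gene in this way, and 9 have counts that are not whole, which happens where reads are divided among near copies.

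Assembly factors of complex I had 7 positive log2 fold changes of 8, with a median of 0.34, and none passed. Ndufaf3, an early assembly factor and the most abundant of them, had 299, 204 and 726 TPM in circSry KO, against 608, 540 and 533 TPM in WT. Replicates 1 and 2 were below every WT library and replicate 3 above, and its log2 fold change was 0.04 ± 0.59 (SE; edgeR adjusted p = 0.976), with -1.03 (adjusted p = 0.040) without circSry KO replicate 3. Its exons overlap Impdh2, a gene of guanine nucleotide synthesis, whose CPM was 150 to 160 in circSry KO and 91.2 to 117 in WT. Ndufaf8, a factor that works with Ndufaf5, had 75.5, 37.1 and 328 TPM in circSry KO, against 97.1, 73.8 and 106 TPM in WT, with a log2 fold change of 1.10 ± 0.83 (SE; edgeR adjusted p = 0.450). Ndufaf2, which stabilises a late assembly intermediate, had 124, 94.8 and 246 TPM in circSry KO, against 143, 124 and 123 TPM in WT, with a log2 fold change of 0.94 ± 0.58 (SE; edgeR adjusted p = 0.351).

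A pair of complex I genes differ in chromosome. Ndufb11, an accessory subunit gene on the X chromosome, which is largely silenced in pachytene spermatocytes, had 17.5, 14.4 and 14.7 TPM in circSry KO, against 14.5, 12.5 and 11.9 TPM in WT. Its relative Ndufb11b on chromosome 15 had 215, 170 and 274 TPM in circSry KO, against 271, 462 and 485 TPM in WT. The autosomal gene was therefore 12.3, 11.8 and 18.6 times the X-linked one in circSry KO, against 18.6, 36.8 and 40.6 times in WT. The ranges met at one WT library, and both genes were singled out after their values were seen. Neither passed the edgeR test, with log2 fold changes of 0.74 ± 0.42 (adjusted p = 0.319) for Ndufb11 and -0.28 ± 0.44 (SE; adjusted p = 0.735) for Ndufb11b.

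Complex II was the only complex of the 4 with a negative median on counts when all libraries were used, and it has the longest transcripts of them, with a median effective length of 1141 bases beside 467, 297 and 483 bases for complexes I, III and V. On log2(TPM + 1) all 4 genes had a negative difference, with a median of -0.70. Sdha, the flavoprotein that oxidises succinate, had 83.1, 67.8 and 148 TPM in circSry KO, against 121, 233 and 145 TPM in WT, with a log2 fold change on counts of -0.53 ± 0.35 (SE; edgeR adjusted p = 0.387). Sdhb, the iron-sulfur subunit, had 144, 97.4 and 182 TPM in circSry KO, against 142, 150 and 140 TPM in WT, and was the only one with a positive log2 fold change, 0.56 ± 0.46 (SE; adjusted p = 0.490). For both the groups overlapped.

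The membrane anchors of complex II pointed lower on TPM. Sdhc had 43.5, 35.1 and 49.4 TPM in circSry KO, against 43.9, 94.3 and 72.3 TPM in WT, with a log2 fold change on counts of -0.20 ± 0.54 (SE; edgeR adjusted p = 0.853). Sdhd had 51.3, 34.0 and 58.4 TPM in circSry KO, against 77.6, 87.6 and 74.5 TPM in WT, and its log2 fold change on counts was -0.17 ± 0.44 (SE; edgeR adjusted p = 0.847). On TPM the 3 circSry KO libraries of Sdhd lay below the 3 WT libraries, which on CPM they did not. Sdhb made up 44.7%, 41.6% and 41.5% of the TPM of complex II in circSry KO, against 36.9%, 26.5% and 32.4% in WT. The groups did not overlap in this share. Counting Sdhb, 17 of the 78 members were without overlap in the share of their complex, 8 higher and 9 lower. Shares within a complex depend on one another and have no counterpart over all genes, so this count is a description only. Without circSry KO replicate 3, edgeR called Sdha and Sdhc lower, at log2 fold changes of -0.95 (adjusted p = 0.023) and -1.04 (adjusted p = 0.040).

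Of the 8 complex III genes, 7 had a positive log2 fold change and none passed. The small subunits Uqcrq, Uqcr10 and Uqcrh were the most abundant. Uqcrq, a small subunit bound to cytochrome b, had 1341, 786 and 4221 TPM in circSry KO, against 2177, 1203 and 1387 TPM in WT, the highest mean of all members. Its log2 fold change on counts was 1.06 ± 0.78 (SE; edgeR adjusted p = 0.438), and -0.48 without circSry KO replicate 3. Uqcrh, the hinge subunit next to cytochrome c1, had 316, 236 and 850 TPM in circSry KO, against 395, 285 and 339 TPM in WT, with a log2 fold change of 1.12 ± 0.67 (SE; edgeR adjusted p = 0.340). Uqcr10, another small subunit, had 470, 275 and 1019 TPM in circSry KO, against 509, 391 and 466 TPM in WT, with a log2 fold change of 1.11 ± 0.64 (SE; adjusted p = 0.325). In all 3 genes replicate 3 was the highest library and replicate 2 the lowest.

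The larger complex III subunits differed from one another. Uqcrc1, a core protein of the matrix side, had 380, 251 and 754 CPM in circSry KO, against 512, 317 and 365 CPM in WT, the order of the small subunits, with replicate 3 highest and replicate 2 lowest. On TPM it had 319, 274 and 409 in circSry KO, against 477, 392 and 415 in WT, and its log2 fold change on counts was 0.22 ± 0.44 (SE; edgeR adjusted p = 0.796), and -0.38 without circSry KO replicate 3. Uqcrfs1, the Rieske iron-sulfur protein, varied little on TPM, with 157, 120 and 152 TPM in circSry KO, against 119, 114 and 133 TPM in WT. On CPM replicate 3 was its highest library too, with 151, 88.9 and 224 CPM in circSry KO, against 103, 76.4 and 96.7 CPM in WT, and it had a log2 fold change of 0.75 ± 0.38 (SE; edgeR adjusted p = 0.273). Uqcrc2 (chr7:120635176-120659524, GRCm38, plus strand), the other core protein, had 53.4, 49.7 and 54.8 TPM in circSry KO, against 71.3, 147 and 126 TPM in WT. Its 3 circSry KO libraries were close together and all below WT on TPM, while its CPM overlapped, at 70.8, 53.4 and 116 in circSry KO and 88.2, 138 and 133 in WT. Its exons overlap Pdzd9, which had 161 to 230 CPM in circSry KO and 107 to 168 CPM in WT. For Uqcrc2 the log2 fold change on counts was -0.58 ± 0.38 (SE; edgeR adjusted p = 0.384), and -0.99 (adjusted p = 0.030) without circSry KO replicate 3. Cyc1, cytochrome c1, which the rule leaves out, had 28.3, 18.6 and 57.1 CPM in circSry KO, against 71.6, 76.0 and 60.3 CPM in WT, the groups not overlapping, with a log2 fold change of -1.0 ± 0.44 (SE; edgeR adjusted p = 0.213).

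In complex V the F1 head, where ATP is made, had 3 positive log2 fold changes of 5, with a median of 0.45. Atp5a1, the alpha subunit, had 137, 168 and 173 TPM in circSry KO, against 281, 347 and 317 TPM in WT. No circSry KO library reached the WT range on TPM, but on CPM replicate 3 did, with 235, 201 and 443 CPM in circSry KO and 454, 426 and 409 CPM in WT, and the log2 fold change on counts was -0.55 ± 0.36 (SE; edgeR adjusted p = 0.387). Its exons overlap Haus1, a gene of the augmin complex, which had 98.3 to 348 CPM in circSry KO and 86.2 to 197 CPM in WT. Atp5c1, the gamma subunit of the central shaft, differed little, with 160, 145 and 160 TPM in circSry KO, against 136, 155 and 156 TPM in WT (log2 fold change 0.60 ± 0.36, SE; edgeR adjusted p = 0.341). Atp5e, the small epsilon subunit of the same shaft, had 1102, 562 and 3780 TPM in circSry KO, against 2447, 965 and 977 TPM in WT, a range wider than that of any other F1 gene, with a log2 fold change of 1.10 ± 0.90 (SE; edgeR adjusted p = 0.488).

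The 5 small membrane subunits of the Fo sector all had positive log2 fold changes, with a median of 1.43, and held the 2 genes that DESeq2 called. Atp5md (chr19:47083464-47090647, GRCm38, minus strand), which takes part in joining ATP synthase into dimers, had 590, 441 and 546 TPM in circSry KO, against 209, 288 and 266 TPM in WT. Atp5mpl (chr12:111961375-111966977, GRCm38, minus strand), a small proteolipid of the same sector, had 715, 482 and 893 TPM in circSry KO, against 378, 396 and 340 TPM in WT. For both genes every circSry KO library was above every WT library, on TPM and on CPM, and replicate 3 was not what separated the groups. On CPM they were the only members higher without overlap (14.1% of all genes), and on TPM Ndufb1 joined them (5.81% of all genes). The log2 fold change was 1.63 ± 0.37 for Atp5md (SE; edgeR adjusted p = 0.089, DESeq2 adjusted p = 0.00275) and 1.66 ± 0.43 for Atp5mpl (SE; edgeR adjusted p = 0.095, DESeq2 adjusted p = 0.00965).

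Both genes are among the shortest, with effective lengths of 141 bases for Atp5md and 144 bases for Atp5mpl, and with the length trend removed their log2 fold changes were 0.32 and 0.34. On log2(TPM + 1) they were 1.05 and 0.86. Exons of Atp5md overlap Taf5, a subunit of general transcription factor TFIID, which had 23.4 to 32.4 CPM in circSry KO and 27.3 to 34.3 CPM in WT. Lower on TPM without overlap were 4 members, beside 21.7% of all genes: Sdhd, Uqcrc2, Atp5a1 and the accessory subunit gene Ndufa10, with 21.5, 25.7 and 29.8 TPM in circSry KO, against 44.4, 47.9 and 36.5 TPM in WT.

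**Figure D4:**
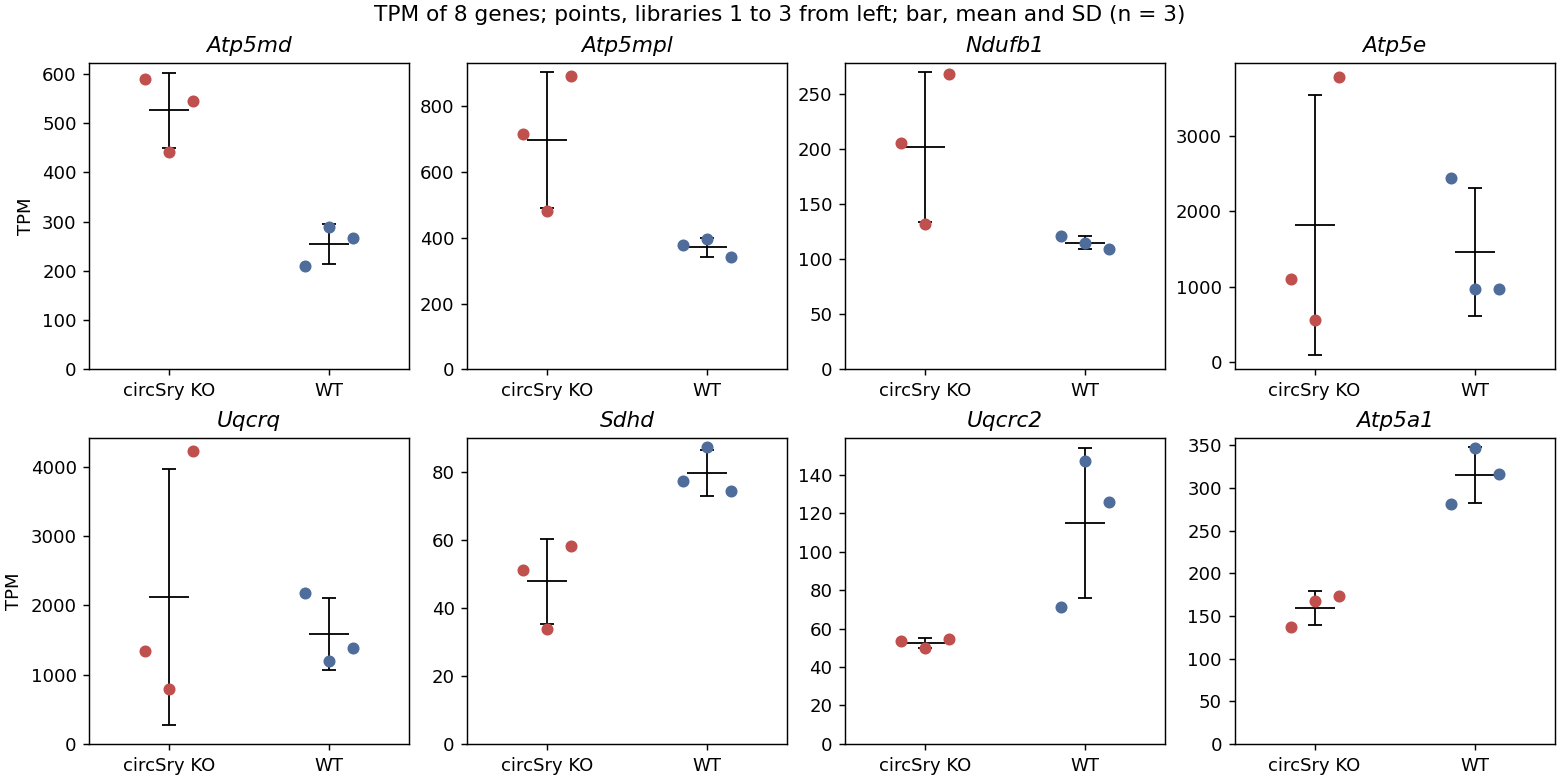
TPM (vertical axis) of 8 genes in circSry KO (red, left) and WT (blue, right); points are replicates 1 to 3 from left, and bars give the mean and SD (n = 3). Atp5md, Atp5mpl and Ndufb1 are higher in every circSry KO library, Sdhd, Uqcrc2 and Atp5a1 lower in every one, and in Atp5e and Uqcrq replicate 3 alone is above WT.

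Subunit c, which forms the rotor ring, is made from 3 genes whose mature proteins are the same, and the peripheral stalk holds the F1 head still. Atp5g1 had 187, 119 and 195 TPM in circSry KO, against 159, 172 and 182 TPM in WT, and its log2 fold change on counts was 0.52 ± 0.42 (SE; edgeR adjusted p = 0.481). Atp5g3 had 75.9, 62.4 and 196 TPM in circSry KO, against 135, 212 and 169 TPM in WT, with a log2 fold change of 0.12 ± 0.62 (SE; edgeR adjusted p = 0.930), and -1.11 (adjusted p = 0.017) without circSry KO replicate 3. Atp5g1 took 56.4%, 50.3% and 43.9% of the c-ring TPM in circSry KO, against 44.5%, 33.9% and 42.2% in WT. Atp5g3 took 22.9%, 26.4% and 44.1% in circSry KO, against 37.7%, 41.8% and 39.1% in WT. Atp5g1 thus led in every library except circSry KO replicate 3 and WT replicate 2, where Atp5g3 led. In the stalk, Atp5h, subunit d, had 409, 260 and 844 TPM in circSry KO, against 481, 360 and 377 TPM in WT (log2 fold change 1.04 ± 0.68, SE; edgeR adjusted p = 0.380). Atp5j, coupling factor 6, was steadier, with 340, 364 and 388 TPM in circSry KO, against 316, 359 and 348 TPM in WT (log2 fold change 0.43 ± 0.39, SE; edgeR adjusted p = 0.535).

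Complex IV and the subunits made inside mitochondria were set beside the members from fixed lists. All 14 tested complex IV genes had positive log2 fold changes, with a median of 0.79, which was -0.04 without circSry KO replicate 3 and -0.27 with the length trend removed. Neither edgeR nor DESeq2 called any of them, and 0 had an unadjusted edgeR p under 0.05. The sums of all 17 listed complex IV genes, 2278, 1132 and 7322 CPM in circSry KO against 2439, 1682 and 1838 CPM in WT, had the library order of the members. As a sum, the 13 mitochondrially encoded subunits went the other way. They summed to 8611, 11595 and 4535 CPM in circSry KO, against 7527, 19634 and 12166 CPM in WT, and circSry KO replicate 3 was the lowest library. Not every gene followed the sum, since mt-Atp6 and mt-Nd3 were highest in that library, at 702 and 104 CPM. The median log2 fold change of the 13 was -0.89 (-0.63 without circSry KO replicate 3), and 12 of 13 were negative. Of these subunits, 0 were called by edgeR or DESeq2 or had an unadjusted edgeR p under 0.05. The members' summed CPM over theirs was 0.817, 0.351 and 4.37 in circSry KO, against 1.23, 0.318 and 0.553 in WT. The ratio in circSry KO replicate 3 stood far above the other 5, which overlapped between the groups.

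**Figure D5:**
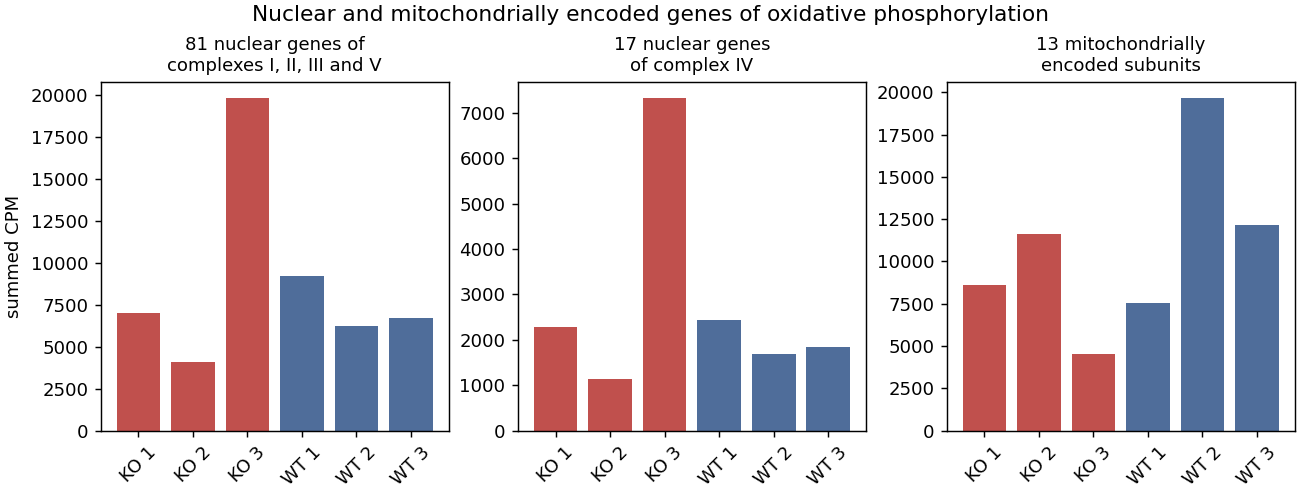
Summed CPM (vertical axes, starting at 0) of the nuclear genes of complexes I, II, III and V, the nuclear genes of complex IV and the 13 mitochondrially encoded subunits in circSry KO replicates 1 to 3 (red) and WT replicates 1 to 3 (blue). circSry KO replicate 3 is the highest library for both nuclear groups, at 19814 and 7322 CPM, and the lowest for the mitochondrial one, at 4535 CPM.

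Among 11 regulators of mitochondrial gene expression, edgeR found 1 higher and 1 lower at an unadjusted p under 0.05 (13.6% and 9.84% of all genes). None passed after adjustment, and DESeq2 called the same 2. Tfam, which packages and transcribes mitochondrial DNA, had 183, 129 and 61.9 CPM in circSry KO, against 29.7, 22.8 and 20.3 CPM in WT. Every circSry KO library was above WT, with replicate 3 nearest to it, and the log2 fold change was 2.36 ± 0.44 (SE; edgeR adjusted p = 0.087). Polrmt, the mitochondrial RNA polymerase, had 17.4, 17.3 and 30.3 CPM in circSry KO, against 42.5, 58.7 and 46.0 CPM in WT, lower in every circSry KO library, with a log2 fold change of -1.18 ± 0.36 (SE; edgeR adjusted p = 0.116, DESeq2 adjusted p = 0.034). On TPM its groups overlapped, at 32.7, 16.2 and 74.8 TPM in circSry KO, against 49.5, 46.4 and 36.6 TPM in WT, with circSry KO replicate 3 the highest of the 6. Nrf1, whose motif was searched above, had 16.6, 15.5 and 27.1 CPM in circSry KO, against 26.0, 25.9 and 28.1 CPM in WT, which overlapped. On TPM it was lower in every circSry KO library, at 11.7, 13.8 and 11.7 TPM, against 27.2, 25.8 and 25.4 TPM in WT. Gabpa, whose exons overlap Atp5j, had 28.7 to 33.4 CPM in circSry KO and 28.4 to 40.1 CPM in WT.

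Of 23 further assembly factors of these complexes, 2 were higher and 0 lower at an unadjusted p under 0.05. The shares over all genes were 13.6% and 9.84%, and edgeR called 0 of these factors after adjustment. Without circSry KO replicate 3 edgeR called 1 higher (18.5% of all genes) and 6 lower (16.2% of all genes). The median log2 fold change of these factors was -0.53 in that fit, beside -0.07 with all libraries. Lyrm7, a chaperone of the Rieske protein, had 44.2, 44.2 and 38.5 CPM in circSry KO, against 21.2, 15.5 and 20.3 CPM in WT, and Nubpl, which delivers iron-sulfur clusters to complex I, had 16.6, 13.9 and 17.3 CPM, against 11.0, 4.41 and 6.74 CPM. Both were higher in all 3 circSry KO libraries on CPM but not on TPM, and DESeq2 called Lyrm7 alone (adjusted p = 0.00819). Of 17 genes of the citric acid cycle and related dehydrogenases, 0 were higher and 4 lower at that p (13.6% and 9.84% of all genes). After adjustment edgeR and DESeq2 called 0, and 5 of the 17 log2 fold changes were positive. Cs, citrate synthase, had 41.7, 43.1 and 53.7 CPM in circSry KO, against 65.3, 117 and 84.1 CPM in WT, and its log2 fold change was -0.94 ± 0.33 (SE; edgeR adjusted p = 0.146). Among the others were Idh3a and Dlat, with log2 fold changes of -0.85 and -0.89. For Cs, Idh3a and Dlat circSry KO replicate 3 lay with the other circSry KO libraries, below every WT library on both scales. Fh1 went the other way, with 40.1, 30.1 and 27.8 CPM in circSry KO, against 22.5, 20.7 and 19.6 CPM in WT. It was above WT in every circSry KO library on both scales, with a log2 fold change of 0.65 ± 0.31 (SE, edgeR adjusted p = 0.247).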

How the data were processed

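RNA-seq libraries of sorted primary spermatocytes, 3 circSry KO and 3 WT, were grouped by the genotype in their labels. The authors deposited estimated counts (RSEM expected counts) without normalization, per the file headers. TPM and FPKM per gene were also computed and deposited by the authors, per the file headers. STAR 2.7.0f, RSEM 1.3.2 and edgeR 3.28.1 are listed in the submitters' processing notes, which also list GRCm39 and mm9 without saying what each build served for. The library kit (TruSeq) does not mark strand.

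For testing, the estimated counts were rounded and the whole table was fitted in R 4.3.3 with edgeR 4.0.16 (genes kept by filterByExpr, libraries scaled by TMM). Genotype was tested by quasi-likelihood with Benjamini-Hochberg adjusted p under 0.05 as the call, and standard errors were derived from the F statistic. CPM were scaled by TMM factors, except in the limits from a count of 0 and in the filter of 1 CPM. TPM served for levels and sums, since they are per length. Effective length was taken from the deposited counts and FPKM of genes with at least 10 counts and an FPKM of at least 0.5. Depth was 7400360 to 9294723 counts, and limits from a count of 0 (3 counts) cover counting error only. The default edgeR fit was tested on simulated counts, and limma on log2 values computed from them. Other fits were not tested in this way, and the simulation held no library that stood apart.

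As alternatives, scaling was changed to upper-quartile or RLE factors, the filter was dropped or set to 1 CPM in 3 libraries, and the tool was changed to DESeq2 1.42.0, limma-voom (limma 3.58.1) or limma on TPM with 1 or 0.1 added before the log2 (minimum 1 TPM in 3 libraries, or no minimum). Others were removal of each library's lowess trend (span 0.3) on log2 length, a replicate block and each library left out; for the sums, CPM, subunits only, no most abundant gene, TPM recomputed from FPKM and TPM without mitochondrial genes in the total. Removing the length trend together with leaving out circSry KO replicate 3 was added after seeing the data. Positions and exon overlaps came from GENCODE M21 (GRCm38), matched by gene identifier for all 81 members, while the build used for counting is open; this touches positions, not counts.

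The members, gene lists and tests were chosen with earlier results of these data known. Genes named are, in each role group except the genes related to complex I, the most abundant and the 2 with the smallest p, all Sdh genes and the highest and lowest log2 fold change of each complex (26 genes); Ndufb11, Ndufb11b, Ndufa10, Uqcrc1 and the genes of other lists and overlapping genes that are named were chosen after their values were seen.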

Additional observations from a re-analysis of the deposited data

How the results depend on the processing

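RLE and upper-quartile factors, a minimum of 1 CPM in 3 libraries, limma-voom and the replicate block left 0 genes and 0 members called, as in the reported fit, and kept the sign of every complex median. DESeq2 called 1943 genes and 2 members, edgeR with no filter 869 and 2. limma called 7 genes on log2(TPM + 1), 3 with no filter and 41 on log2(TPM + 0.1). Removing the length trend together with circSry KO replicate 3 gave 7987 genes and 54 members.

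Leaving out 1 library at a time gave 0 to 6228 genes and 0 to 14 members called, the highest without circSry KO replicate 3. The median log2 fold change ranged from -0.54 to 1.01 for complex I, -0.84 to 0.18 for complex II, -0.43 to 1.16 for complex III and -0.43 to 0.88 for complex V, all lowest without that library. The log2 ratio of summed TPM ranged from -0.57 to 0.43 for complex I, -0.73 to -0.28 for complex II, -0.57 to 0.57 for complex III and -0.49 to 0.38 for complex V. On summed CPM the log2 ratios were 0.57, -0.14, 0.62 and 0.34.

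With the length trend removed 0 genes and 0 members were called, and the medians were -0.29, -0.45, -0.26 and -0.30 for complexes I, II, III and V, and with circSry KO replicate 3 left out as well -0.98, -0.95, -0.93 and -0.89. On log2(TPM + 1) they were -0.23, -0.70, -0.10 and -0.065, beside -0.25 for all genes. The positive sign for complexes I, III and V on counts did not hold on that scale, though their medians were not below that of all genes.

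Of the 26 named genes, the log2 fold change changed sign with the length trend removed for Ndufaf2 (-0.077), Ndufaf3 (-0.32), Ndufaf8 (-0.0080), Ndufc1 (-0.29), Uqcr10 (-0.25), Uqcrh (-0.11), Uqcrq (-0.28), Atp5e (-0.30), Atp5g1 (-0.49), Atp5g3 (-0.95), Atp5h (-0.12) and Atp5j (-0.44). With circSry KO replicate 3 left out as well it did so for Ndufaf2 (-0.65), Ndufaf3 (-1.19), Ndufaf8 (-1.32), Ndufc1 (-0.98), Ndufv2 (-0.35), Sdhb (-0.36), Uqcr10 (-0.82), Uqcrh (-0.84), Uqcrq (-1.21), Atp5c1 (-0.063), Atp5e (-1.34), Atp5g1 (-0.64), Atp5g3 (-1.72), Atp5h (-0.85) and Atp5j (-0.63). On log2(TPM + 1), filtered or not, it did so for Ndufaf3 (-0.66), Sdhb (-0.072), Atp5g1 (-0.065) and Atp5g3 (-0.79), and on log2(TPM + 0.1) for the same genes (-0.66, -0.073, -0.066 and -0.79). With limma-voom Ndufaf3 had -0.34 and Atp5g3 -0.34.

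Ranges over the libraries left out that crossed 0 were -0.052 to 1.32 for Ndufaf2, -1.03 to 0.45 for Ndufaf3, -0.71 to 1.60 for Ndufaf8, -0.25 to 1.45 for Ndufc1, -0.029 to 1.20 for Ndufv2, -0.084 to 0.91 for Sdhb, -1.04 to 0.19 for Sdhc, -0.73 to 0.17 for Sdhd, -0.032 to 1.54 for Uqcr10, -0.15 to 1.55 for Uqcrh, -0.48 to 1.53 for Uqcrq, -0.62 to 2.01 for Atp5e, -1.11 to 0.52 for Atp5g3, -0.18 to 1.48 for Atp5h and -0.052 to 0.71 for Atp5j. Atp5md and Atp5mpl were positive in every alternative, with adjusted p from 0.00275 to 0.566 and from 0.00965 to 0.472.

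The labels number the replicates 1 to 3 in both groups. Deviations of same-numbered libraries correlated at 0.04, 0.33 and -0.27, and those of libraries with different numbers at -0.47 to 0.35. So few values cannot settle whether the numbers pair the samples. With the replicate number as a block 0 genes were called, and Ndufaf3 (-0.37) and Atp5g3 (-0.35) changed sign. Why the results change with a setting was not tested. With 3 libraries a group and a between-library coefficient of variation of 0.453 (0.289 without circSry KO replicate 3), small differences were not detectable at this depth and number.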

Other observations

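The length that the deposited counts and FPKM imply for a gene reflects which of its isoforms were assigned reads. It could be set for 77 members in all 6 libraries, and its longest value was over 1.5 times its shortest for 10 of them and over 2 times for 5. Atp5b, the beta subunit of the ATP synthase, had implied lengths of 729, 1020 and 345 bases in circSry KO replicates 1 to 3, against 652, 623 and 584 bases in WT. Ndufv1, the NADH-binding core subunit of complex I, had 1263, 1337 and 596 bases in circSry KO, against 1089, 1278 and 1331 bases in WT. In both genes, and in Ndufs1 and Sdha, circSry KO replicate 3 had the shortest value, so that its TPM are raised relative to its counts. Named genes here were picked after inspection of these lengths.

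Ndufb4c, which GENCODE M21 types as a processed pseudogene and which is named after the accessory subunit gene Ndufb4, was at 112, 83.4 and 55.4 TPM in circSry KO, against 96.5, 167 and 228 TPM in WT. Its TPM over that of Ndufb4 was 1.83, 1.51 and 0.548 in circSry KO, against 1.47, 2.13 and 2.92 in WT. The ranges overlapped, and reads divided between near copies make both values uncertain.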
